A study of Mus musculus with 25 samples.

Results

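The 43 genes described here encode core machinery of autophagy and of mTOR signaling. They were taken as a list of gene symbols chosen with earlier results of these data known. The list covers initiation and membrane conjugation of autophagosomes, the mTOR complexes and the TFEB family. A separate list of 13 autophagosome fusion genes is among the other pathway genes below. All 43 were found in the count file and passed the requirement of 10 counts summed over the immunoprecipitates, so they make up 43 of the 21738 genes tested and of the 50559 genes listed. Messenger RNA bound to ribosomes of spinal cord cholinergic neurons was isolated by hemagglutinin (HA) immunoprecipitation (IP) from 6-mo-old male C57BL/6J mice. Controls, called WT in the labels, were *ChAT-Cre;RiboTag* fx/+, and *ChAT-BKO* mice carried *Bmal1* fx/fx in addition, so that a Cre under control of the choline acetyltransferase gene tagged ribosomes in both genotypes and deleted *Bmal1* in the latter. This Cre acts in cholinergic cells in general and not in spinal cord alone. Spinal cords were collected at Zeitgeber time (ZT) 8, in the light period, and at ZT20, in the dark period. With 1 cord per library this gave 4 conditions of 6 libraries, beside 1 pooled input library of whole spinal cord RNA.

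Autophagy encloses cytoplasm in a double membrane that fuses with the lysosome. The ULK kinase complex starts the process, a class III PI3-kinase marks the membrane with PI3P, lipids are moved in, and a ubiquitin-like conjugation system attaches ATG8 proteins (LC3 and GABARAP) to the growing membrane. Mechanistic target of rapamycin complex 1 (mTORC1) holds ULK1 and the lysosomal transcription factors TFEB and TFE3 in check when nutrients are plentiful, and the TSC complex restrains mTORC1 through the GTPase RHEB. Neurons depend on this pathway to clear proteins and organelles from long axons.

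BMAL1 and its partner CLOCK bind the E-box CACGTG, and TFEB binds a longer form of it, so the promoters of the members were searched for these letters. RefSeq promoter windows of the build GRCm38.p6, which run from 250 bases before to 50 bases after a start site, were at hand for 36 of the 43 members. On either strand, CACGTG was found in 5 of these 36 genes (13.9%), against 8.09% of all 27025 genes with a window. The longer TCACGTGA, which contains the E-box, was found in 1 member (2.78%, against 1.12% of all genes). Neither TTATGTAA, the site of clock-controlled D-box factors, nor TAGGTCA, the core of the ROR and REV-ERB element, was found in a member window (1.11% and 2.97% of all genes). The stretches around the E-boxes are printed because these 5 genes hold the letters that BMAL1 is known to bind, with the E-box in capitals and 20 bases on either side, read 5′ to 3′ on the strand of the gene. They lie at chr14:47568410-47568455 for *Atg14* (minus strand), chr16:45158715-45158783 for *Atg3* (plus), chr10:44268305-44268350 for *Atg5* (plus), chr6:114670944-114670989 for *Atg7* (plus) and chr5:24842432-24842477 for *Rheb* (minus).
Atg14: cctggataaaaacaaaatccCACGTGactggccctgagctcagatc
Atg3: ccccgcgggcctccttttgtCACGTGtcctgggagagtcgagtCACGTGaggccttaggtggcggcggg
Atg5: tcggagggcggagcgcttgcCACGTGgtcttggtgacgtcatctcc
Atg7: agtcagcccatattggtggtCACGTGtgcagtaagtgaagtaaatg
Rheb: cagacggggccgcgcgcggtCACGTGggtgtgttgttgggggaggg

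*Atg3* held 2 E-boxes, and its second is part of TCACGTGA. Windows of *Tfeb* and *Mlst8*, the members called between times of day, held none of the 4 motifs, which says only that these letters are absent there. The 250 bases before the first of 3 annotated *Tfeb* starts (chr17:47736787-47737036, plus strand) and before the *Mlst8* start (chr17:24479079-24479328, minus strand) are printed because these genes carry the time-of-day result, with no capitals since no motif was found.
Tfeb: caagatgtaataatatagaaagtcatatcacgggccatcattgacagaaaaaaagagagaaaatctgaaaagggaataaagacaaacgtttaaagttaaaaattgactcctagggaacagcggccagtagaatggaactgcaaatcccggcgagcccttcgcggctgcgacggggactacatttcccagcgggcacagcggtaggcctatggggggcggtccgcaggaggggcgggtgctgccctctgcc
Mlst8: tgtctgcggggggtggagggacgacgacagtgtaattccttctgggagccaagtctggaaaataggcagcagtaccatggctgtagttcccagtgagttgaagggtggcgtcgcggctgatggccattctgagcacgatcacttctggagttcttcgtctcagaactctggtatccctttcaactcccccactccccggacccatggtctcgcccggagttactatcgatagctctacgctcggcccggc

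Total counts ran from 4035327 to 31685178 over the 24 IP libraries and came to 7396572 for the input. Levels are given as CPM, the usual count relative to library size, with library sizes scaled by TMM. The targeted gene, listed as *Arntl*, was at 8.44 ± 1.43 CPM (SD, n = 6) in controls and 2.64 ± 0.538 in *ChAT-BKO* neurons at ZT8, and at 8.73 ± 1.18 and 1.92 ± 0.515 at ZT20, and the genotypes did not overlap at either time. All 7 cholinergic markers were above the input in the IP libraries, by a median of 2.79 on the log2 scale, and all 6 oligodendrocyte, 6 astrocyte, 6 microglial, 6 endothelial and 20 skeletal muscle markers were below it, by medians from -3.99 to -2.77. No marker had 0 counts over all 6 libraries of a condition. Over all IP libraries the summed level was 4230 to 4880 CPM for cholinergic markers, 1660 to 2490 for oligodendrocyte, 166 to 263 for astrocyte, 9.58 to 16.2 for microglial, 8.01 to 19.3 for endothelial and 64.1 to 291 for muscle markers. In bulk IP libraries, fewer cells with a transcript and less transcript per cell cannot be told apart.

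Most members were above the median gene in the IP libraries. This level alone does not tell which cells a transcript came from, since markers of other cell types were present as well. The median member was at 57.5 CPM, against 4.16 CPM for all genes tested. A mean of at least 10 CPM was reached by 40 of the 43 members and by 8739 of the 21738 genes tested. Levels of different genes are compared below as CPM per kilobase of the annotated principal transcript, with the SD over all 24 IP libraries, which pools the 4 conditions. The values assume that this transcript is the one expressed. *Becn1*, *Atg4d*, *Atg7*, *Map1lc3b*, *Gabarapl2* and *Tsc2* had counts that were not whole in at least 23 of 24 libraries, so reads shared with other loci were split there and their levels are less certain.

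The ATG8 proteins, the ubiquitin-like proteins that coat autophagosomes and bind cargo receptors, had the highest levels of all members. *Gabarapl1* was at 372 ± 14.2 CPM per kilobase and *Map1lc3a* at 358 ± 38.6, and *Gabarapl1* was the higher of the pair in 14 of 24 libraries, so their order did not hold up against the spread between libraries. Next came *Gabarapl2* at 119 ± 9.88 and *Map1lc3b* at 117 ± 3.76, in this order in 16 of 24 libraries. *Gabarap* was at 87.0 ± 6.7 and below *Map1lc3b* in 24 of 24 libraries. *Nbr1*, a cargo receptor that links ubiquitinated proteins to ATG8 proteins, was at 29.0 ± 2.24.

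**Figure D1:**
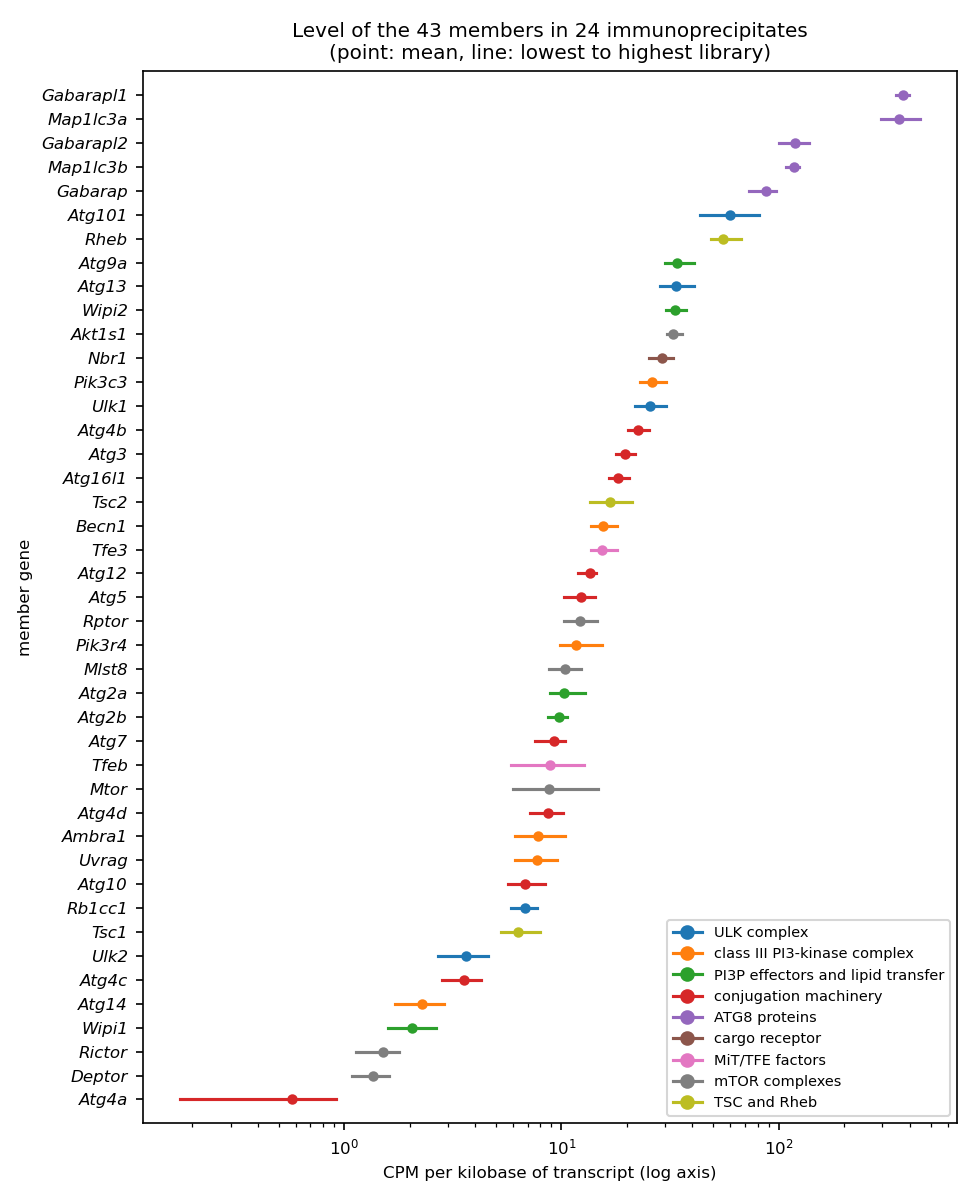
Mean level of each of the 43 members in CPM per kilobase of transcript on a log axis (points), with a line from the lowest to the highest of the 24 IP libraries, colored by role. The 5 ATG8 genes sit at the top, from 87.0 to 372, and *Atg4a* stands lowest at 0.574.

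Within the ULK complex, the kinase gene *Ulk1* (25.6 ± 1.99 CPM per kilobase) exceeded its paralog *Ulk2* (3.63 ± 0.447) in 24 of 24 libraries, with a median log2 ratio of 2.83. In the input the same log2 ratio was 0.54. The adaptor genes of the complex ran from *Rb1cc1* (FIP200), at 6.8 ± 0.409, through *Atg13*, at 33.8 ± 2.99, to *Atg101*, at 59.6 ± 9.82, the highest mean outside the ATG8 genes.

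Among the class III PI3-kinase genes, the catalytic subunit *Pik3c3* (VPS34) was at 26.0 ± 1.76 CPM per kilobase, the scaffold *Becn1* at 15.6 ± 1.07 and the regulatory subunit *Pik3r4* (VPS15) at 11.7 ± 1.23, and this order held in 24 of 24 libraries. *Ambra1*, a regulator of Beclin 1, and *Uvrag*, the subunit of the endosomal form of the complex, were both near 7.7 (7.77 ± 1.06 and 7.74 ± 0.882) and changed places between libraries. *Atg14*, which directs the complex to autophagosome formation, was lowest at 2.29 ± 0.293. *Wipi2*, which reads PI3P on the membrane, was at 33.5 ± 1.86 and its paralog *Wipi1* at 2.06 ± 0.298, with a median log2 ratio of 4.03. The lipid scramblase gene *Atg9a* was at 34.1 ± 2.44, and the lipid transfer genes *Atg2a* (10.3 ± 1.03) and *Atg2b* (9.72 ± 0.475) were in this order in only 17 of 24 libraries.

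The conjugation machinery spanned the widest range. Of the 4 ATG4 proteases, which prime ATG8 proteins and release them from membranes, *Atg4b* (22.4 ± 1.33 CPM per kilobase) exceeded *Atg4d* (8.72 ± 0.695), *Atg4c* (3.56 ± 0.433) and *Atg4a* (0.574 ± 0.168) in this order in 24 of 24 libraries. The place of *Atg4d* rests on an annotated transcript of 5951 bases, and its deviations between libraries went with those of short transcripts (r = -0.84 with the length slope, which is how steeply log2 CPM changes with log2 length over the genes of a library), so its level per kilobase and its order against *Atg4b* are uncertain. The E2-like enzyme *Atg3* was at 19.6 ± 1.12, and the E1-like enzyme *Atg7* at 9.28 ± 0.696. *Atg16l1*, *Atg12* and *Atg5*, whose products form the complex that places ATG8 on the membrane, were at 18.2 ± 0.955, 13.6 ± 0.642 and 12.3 ± 1.1, and *Atg10*, the E2-like enzyme for ATG12, was at 6.8 ± 0.753.

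In the mTOR group, *Akt1s1* (PRAS40), an inhibitor within mTORC1, was at 32.7 ± 1.28 CPM per kilobase, and *Rptor*, the scaffold that defines mTORC1, at 12.2 ± 1.29. *Mlst8*, a subunit shared by both mTOR complexes, was at 10.4 ± 0.958, and the kinase gene *Mtor* at 8.79 ± 2.13. *Rictor*, the scaffold that defines mTORC2, and *Deptor*, an inhibitor of both complexes, were far lower at 1.51 ± 0.186 and 1.36 ± 0.137, and *Mtor* exceeded *Rictor* in 24 of 24 libraries. Upstream, *Rheb* (55.6 ± 4.29) exceeded *Tsc2* (16.7 ± 1.89), which exceeded *Tsc1* (6.29 ± 0.761), again in 24 of 24. Of the lysosomal transcription factors, *Tfe3* was at 15.3 ± 1.17 and *Tfeb* at 8.83 ± 1.71.

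The IP libraries were compared with the pooled input as a log2 ratio of CPM, a description without a test because the input is 1 library. The median member was 0.53 above the input on the log2 scale, against -0.06 for all genes tested and 0.41 for the 8739 genes with a mean of at least 10 CPM. *Atg101* had the highest ratio (median 2.38, range 1.93 to 2.83 over 24 libraries), followed by *Map1lc3a* (median 1.56) and *Pik3r4* (median 1.10). Of the 43 members, 29 were above the input in all 24 libraries and 7 were below it in all 24.

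Of the 7 members below the input in all 24 libraries, *Wipi1* had the lowest ratio (median -1.69). It was followed by *Atg4a* (-1.60), *Atg4c* (-1.57), *Ulk2* (-1.52), *Deptor* (-1.43), *Rictor* (-1.18) and *Atg14* (-0.54). *Tsc1* (-0.24), *Ambra1* (-0.19), *Wipi2* (-0.14) and *Tfeb* (-0.12) also had a median below the input, but not in every library. The level of the ratio depends on scaling: with library totals in place of TMM the member median was 0.08, and 7 of the 43 members changed sign. None of these 7 was among those just named, which were below the input under both scalings.

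**Figure D2:**
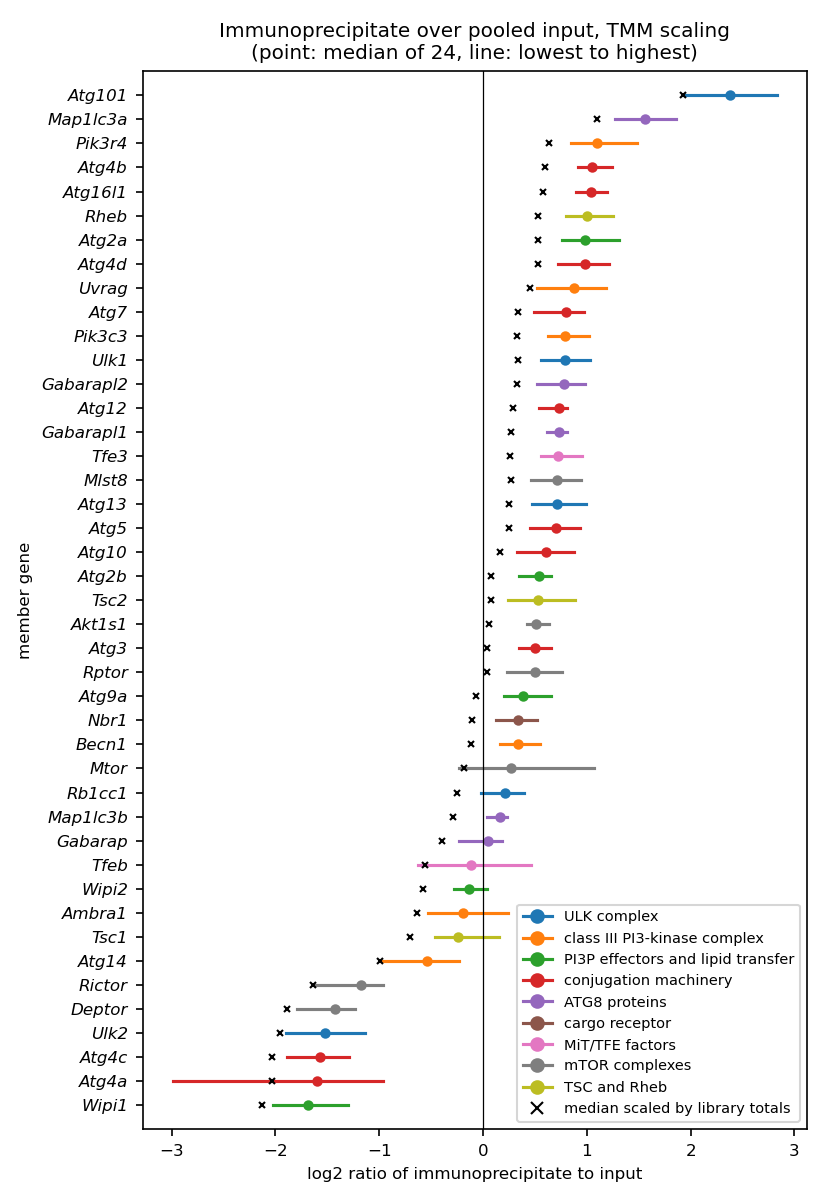
Log2 ratio of IP to pooled input for each member, with the median of 24 IP libraries (points), the lowest and highest library (lines) and the median when libraries are scaled by their totals (crosses). *Atg101* stands highest at 2.38, and the 7 members at the bottom lie below 0 under both scalings.

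To ask whether loss of *Bmal1* alters this pathway, *ChAT-BKO* neurons were compared with controls at each time. At ZT8, 0 of 43 members passed an adjusted p under 0.05 in edgeR's quasi-likelihood test, where 0.184% of the 21738 genes tested did. No member had an unadjusted p under 0.05 at ZT8, and DESeq2 and limma also called 0 members. Member log2 fold changes ran from -0.17 to 0.22 with a median of -0.02 (all genes, 0.00), and 18 were positive and 25 negative.

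The intervals set a bound on any change in counts per gene. Splicing was not examined here, and the paper reports several exon skipping events of *Atg10* in *ChAT-BKO* neurons at ZT20. At ZT8, the 95% interval of 33 of the 43 members lay within a 1.2-fold change in either direction, and that of 42 within 1.5-fold, the exception being *Atg4a*, the member with the lowest level. For all genes tested, 6106 of 21738 intervals lay within 1.2-fold. The 2 shares are not at like level, since the median was 57.5 CPM for members and 4.16 for all genes tested. Higher counts narrow an interval, and no share for genes of like level was computed. *Gabarapl1*, for example, ran from 658 to 706 CPM with a median of 687 in controls, and from 634 to 702 with a median of 678 in *ChAT-BKO* neurons. The genotypes overlapped in part, with 1 *ChAT-BKO* library below every control. No member separated the genotypes completely (0 of 43, against 0.57% of all genes).

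Values for the 5 members with the smallest p at ZT8 follow. *Atg4b* was at 96.0 ± 7.8 CPM in controls and 89.5 ± 4.02 in *ChAT-BKO* neurons (n = 6 and 6), a log2 fold change of -0.10 (SE 0.06, 95% interval -0.23 to 0.03, edgeR adjusted p = 1.0). *Wipi1* was at 3.88 ± 0.551 and 4.54 ± 0.6 (0.22, SE 0.14, interval -0.08 to 0.52). *Atg14* was at 9.42 ± 1.06 and 8.27 ± 0.972 (-0.17, SE 0.11, interval -0.40 to 0.06). *Map1lc3a* gave -0.11 (SE 0.08, interval -0.28 to 0.07) and *Rb1cc1* 0.06 (SE 0.06, interval -0.05 to 0.18). All 5 had an adjusted p of 1.0, and none was called. Single libraries set part of these values: *Atg14* was -0.10 without *ChAT-BKO* replicate 3, *Map1lc3a* was -0.06 without control replicate 2, and *Atg4b* was -0.06 without control replicate 6.

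At ZT20, again 0 of 43 members were called by edgeR, where 0.23% of all genes were, and 0 by DESeq2 or limma. Log2 fold changes ran from -0.25 to 0.19 with a median of -0.01, and 1 member had an unadjusted p under 0.05. That member was *Deptor*, which ran from 12.0 to 13.7 CPM with a median of 12.5 in controls and from 9.33 to 12.5 with a median of 10.8 in *ChAT-BKO* neurons. All 6 *ChAT-BKO* libraries were below the control median and 5 were below every control, but the groups overlapped in 1 library. The log2 fold change was -0.25 (SE 0.09, interval -0.44 to -0.06, unadjusted p = 0.0124, edgeR adjusted p = 0.641), and it did not pass the test under any alternative.

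The next members by p at ZT20 were *Map1lc3a* (-0.12, SE 0.06, interval -0.24 to 0.01, edgeR adjusted p = 0.81), *Pik3c3* (-0.10, SE 0.06, interval -0.22 to 0.02, adjusted p = 0.83), *Atg2a* (0.10, SE 0.07, interval -0.05 to 0.24, adjusted p = 0.871) and *Mtor* (0.19, SE 0.14, interval -0.09 to 0.47, adjusted p = 0.872). *Mtor* had the largest spread between libraries of all members above 10 CPM, at 0.34 on the log2 scale within conditions, and ran from 51.5 to 78.3 CPM in controls and from 54.8 to 105 in *ChAT-BKO* neurons. Its value was 0.02 with the length slope as a covariate, 0.07 without *ChAT-BKO* replicate 3 and 0.12 without control replicate 2. *Atg2a* was 0.04 with that covariate and 0.04 without *ChAT-BKO* replicate 3, and *Pik3c3* was -0.06 without control replicate 5. No member was without overlap between the genotypes (0.506% of all genes), and 34 of 43 intervals lay within 1.2-fold. At this time all 20 skeletal muscle markers had a positive log2 fold change (median 1.92, 3 called), and their summed level was 69.3 to 105 CPM in controls and 82.6 to 187 in *ChAT-BKO* neurons. Its part in the values at ZT20 was not tested.

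**Figure D3:**
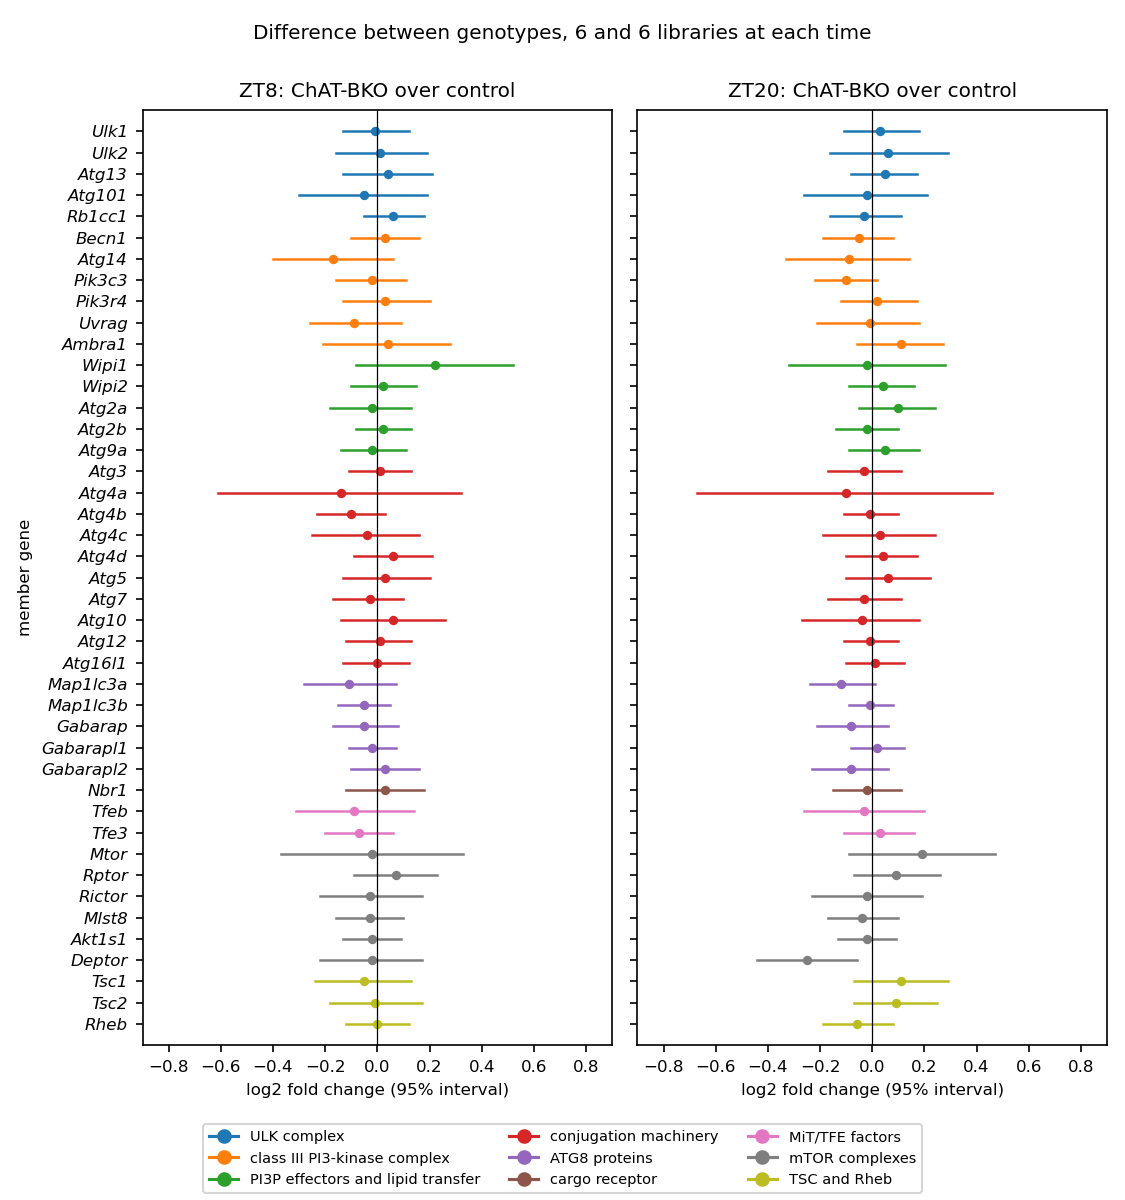
Log2 fold change of *ChAT-BKO* over control neurons for each member at ZT8 and at ZT20 (points, 6 and 6 libraries), with 95% intervals (lines), colored by role. No member was called, and *Deptor* at ZT20 (-0.25) is the one whose interval leaves out 0.

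No role group held a called gene between genotypes. The median log2 fold change at ZT8 and ZT20 was 0.01 and 0.03 for the 5 ULK complex genes, 0.01 and -0.03 for the 6 class III PI3-kinase genes, 0.02 and 0.04 for the 5 PI3P effector and lipid transfer genes, and 0.00 and -0.01 for the 10 conjugation genes. The 5 ATG8 genes gave -0.05 and -0.08, the 6 mTOR complex genes -0.02 and -0.02, and the 3 genes of the TSC and Rheb group -0.01 and 0.09. The cargo receptor gene *Nbr1* gave 0.03 and -0.02, and the pair *Tfeb* and *Tfe3* a median of -0.08 and -0.00. The 5 members with an E-box in the printed promoter stretches gave fold changes on the log2 scale from -0.17 (*Atg14*) to 0.03 (*Atg5*) at ZT8 and from -0.09 (*Atg14*) to 0.06 (*Atg5*) at ZT20, and none was called. *Uvrag* lies on chromosome 7 at 98885021 to 99141141, which is 14.1 Mb from *Arntl* (113207465 to 113314126, GRCm38), with genotype differences of -0.09 (ZT8) and -0.01 (ZT20) on the log2 scale.

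Fitting both times together, with time as a term, narrowed the intervals further. In this comparison of 12 with 12 libraries, 0 of 43 members were called by edgeR, DESeq2 or limma (0.741% of all genes by edgeR), and 2 had an unadjusted p under 0.05. *Deptor* gave -0.13 (SE 0.06, interval -0.26 to -0.01, edgeR adjusted p = 0.645), and *Map1lc3a* gave -0.11 (SE 0.05, interval -0.22 to -0.00, adjusted p = 0.705). *Atg14* (-0.13, SE 0.07, interval -0.28 to 0.02), *Pik3c3* (-0.06, SE 0.04, interval -0.15 to 0.02) and *Rptor* (0.08, SE 0.05, interval -0.03 to 0.19) followed, with adjusted p of 0.836, 0.869 and 0.875. The intervals of 39 of 43 members lay within 1.2-fold and those of all 43 within 1.5-fold. This comparison shares its libraries with those at each time and is no separate support for them.

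The difference between the genotype effects at ZT20 and at ZT8 was tested as an interaction over all 24 libraries. It was called for 0 of 43 members, and for 0.0% of all genes (0 of 21738 by edgeR, DESeq2 or limma, of which 848 had an unadjusted edgeR p under 0.05). No member had an unadjusted p under 0.05. The smallest was for *Deptor* (-0.21, SE 0.12, interval -0.46 to 0.03, unadjusted p = 0.0812, edgeR adjusted p = 1.0), followed by *Atg4b* (0.10, SE 0.07), *Tsc1* (0.17, SE 0.13), *Atg2a* (0.13, SE 0.10) and *Tfe3* (0.11, SE 0.08). Without *ChAT-BKO* ZT20 replicate 3, *Tsc1* was 0.09 and *Atg2a* 0.08, and *Tsc1* was 0.10 with the length slope as a covariate. These intervals were wider, with 23 of 43 members within 1.2-fold.

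The second axis of the design is time of day. Over both genotypes, with genotype as a term, 2 of 43 members differed between ZT20 and ZT8, where 2.69% of all genes did. These shares are not at like level, since the median was 57.5 CPM for members and 4.16 for all genes tested. No share for genes of like level was computed, so the 2 calls may be no more than such genes give. *Tfeb*, the transcription factor that drives lysosome and autophagy genes, was higher at ZT20, and *Mlst8*, the subunit shared by both mTOR complexes, was lower. In log2 ratio to the input, *Tfeb* had a median of -0.12 and was above it in only 7 of 24 libraries. *Mlst8* had a median of 0.71 and was above it in 24 of 24.

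*Tfeb* ran from 13.5 to 20.9 CPM with a median of 18.7 in controls at ZT8, and from 18.7 to 27.0 with a median of 23.2 at ZT20. In *ChAT-BKO* neurons it ran from 14.2 to 20.8 with a median of 17.2 at ZT8, and from 19.0 to 29.3 with a median of 22.5 at ZT20. All 12 libraries at ZT20 were above the median of those at ZT8, and 8 of them were above every library at ZT8, so the times overlapped only in part. The log2 fold change was 0.34 (SE 0.08, interval 0.18 to 0.50, edgeR adjusted p = 0.0143).

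*Mlst8* ran from 37.7 to 47.5 CPM with a median of 44.0 in controls at ZT8, and from 35.9 to 41.4 with a median of 37.7 at ZT20. In *ChAT-BKO* neurons it ran from 39.2 to 45.0 with a median of 42.3 at ZT8, and from 33.7 to 41.7 with a median of 36.7 at ZT20. All 12 libraries at ZT20 were below the median of those at ZT8, and 7 were below every library at ZT8. The log2 fold change was -0.19 (SE 0.04, interval -0.28 to -0.10, edgeR adjusted p = 0.0104). The spread between libraries within conditions was 0.10 on the log2 scale (SD). *Mlst8* overlaps *Bricd5* on the opposite strand, to which 5 counts were assigned over the 24 libraries, against 12200 for *Mlst8*.

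**Figure D4:**
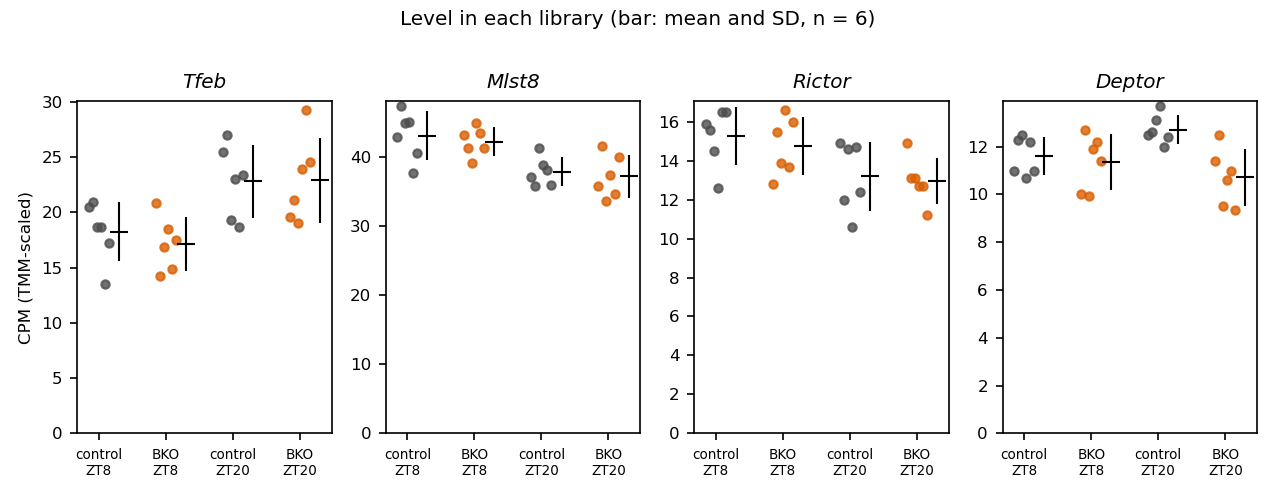
Level in CPM of *Tfeb*, *Mlst8*, *Rictor* and *Deptor* in each library of the 4 conditions (points, gray for control and orange for *ChAT-BKO*), with the mean and SD of 6 libraries beside them and the axis from 0. *Tfeb* is higher and *Mlst8* lower at ZT20 in both genotypes, and *Deptor* overlaps between genotypes at both times.

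Both calls held with every library left out in turn (24 of 24) and under all 8 other settings, with an adjusted p of at most 0.0318 for *Tfeb* and 0.0226 for *Mlst8*. *Tfeb* was 0.31 (SE 0.11, interval 0.09 to 0.53) higher in controls and 0.38 (SE 0.11, interval 0.14 to 0.61) in *ChAT-BKO* neurons, and the difference of 0.07 had an interval from -0.26 to 0.40. *Mlst8* gave -0.19 (SE 0.06) in controls and -0.19 (SE 0.07) in *ChAT-BKO* neurons, and the difference of 0.00 had an interval from -0.17 to 0.18.

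The other 41 members did not pass the test between times. *Rictor* was nearest, at 15.0 ± 1.45 CPM at ZT8 and 13.1 ± 1.45 at ZT20 (-0.19, SE 0.07, interval -0.32 to -0.05, edgeR adjusted p = 0.14), with all 12 libraries at ZT20 below the ZT8 median. *Pik3r4* gave -0.14 (SE 0.05, interval -0.25 to -0.04, edgeR adjusted p = 0.149) and *Atg4c* 0.18 (SE 0.07, interval 0.04 to 0.31, edgeR adjusted p = 0.195). In all, 9 of 43 members had an unadjusted p under 0.05 (20.9%), against 14.1% of all genes, again not at like level. The member median was -0.01, and the intervals of 37 members lay within 1.2-fold. Endothelial markers, at a summed 8.01 to 12.9 CPM at ZT8 and 10.4 to 19.3 at ZT20, had a median log2 fold change of 0.23, with 1 of 6 called. Their part in the time-of-day values was not tested.

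**Figure D5:**
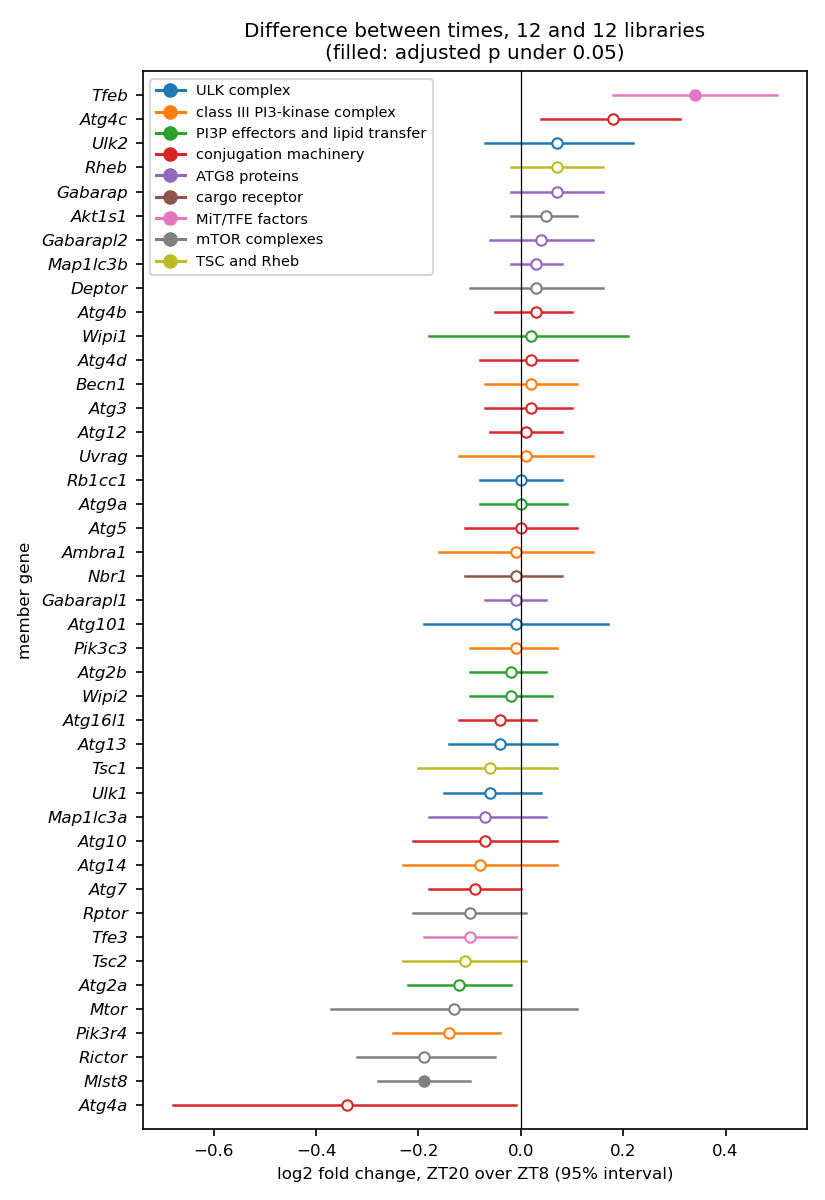
Log2 fold change of ZT20 over ZT8 for each member over both genotypes (points, 12 and 12 libraries), with 95% intervals (lines) and filled points for members called. *Tfeb* (0.34) and *Mlst8* (-0.19) are the called members, and *Atg4a* has the widest interval.

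Within a single genotype, 6 libraries at each time did not call these genes. In controls, 0 of 43 members were called by edgeR, DESeq2 or limma (0.115% of all genes by edgeR), and 6 had an unadjusted p under 0.05. *Mlst8* and *Tfeb* had edgeR adjusted p of 0.402 and 0.403, followed by *Atg2a* (-0.18, SE 0.07, interval -0.32 to -0.05, adjusted p = 0.432), *Tfe3* (-0.15, SE 0.05, interval -0.26 to -0.04, adjusted p = 0.438) and *Pik3r4* (-0.14, SE 0.07, interval -0.28 to -0.00, adjusted p = 0.591). *Tfe3* was the 1 member whose times did not overlap in controls (0.938% of all genes), running from 51.0 to 55.1 CPM at ZT8 and from 45.5 to 50.3 at ZT20. In *ChAT-BKO* neurons, *Tfe3* ran from 44.8 to 59.0 and from 44.9 to 56.4, and the times overlapped.

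In *ChAT-BKO* neurons, 0 of 43 members were called between times by edgeR, DESeq2 or limma (0.285% of all genes by edgeR), and 2 had an unadjusted p under 0.05. *Tfeb* had an adjusted p of 0.212 and *Mlst8* of 0.313. *Rictor* (-0.18, SE 0.09, interval -0.37 to 0.01, edgeR adjusted p = 0.577), *Atg4c* (0.22, SE 0.11, interval -0.02 to 0.45, adjusted p = 0.593) and *Pik3r4* (-0.14, SE 0.08, interval -0.31 to 0.02, adjusted p = 0.62) came next. No member was without overlap between the times in this genotype (1.18% of all genes).

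Between the 4 conditions, the mean of the median member differed by 0.09 from highest to lowest on the log2 scale, and 41 of 43 members differed by less than 1.2-fold. The exceptions were *Atg4a* (0.58), at a mean of 1.26 CPM, and *Tfeb* (0.42).

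In 21 of the 43 members, the spread between libraries of 1 condition went with a difference between libraries in the level of long against short transcripts. For each library, log2 CPM was regressed on the log2 length of the transcript over 10743 genes, and the slope was kept. Over 24 libraries, and after removing condition means, the deviation of 14 members correlated with this slope at Pearson's r above 0.7, led by *Mtor* and *Tsc1* (both 0.95), *Tsc2* (0.94) and *Rptor* (0.93), whose transcripts run from 6018 to 8564 bases. In 7 members r was below -0.7, led by *Atg101* (-0.96), *Gabarapl2* (-0.92), *Gabarap* (-0.91) and *Map1lc3a* (-0.89), with transcripts of 1112 to 1677 bases. *Tfeb*, called between times, was also among these 7 (-0.75, 2296 bases). The share of all genes beyond these bounds was not computed. *Atg4d*, at 5951 annotated bases, went with the short ones (-0.84). The other 22 members lay between these bounds, among them some of the longest transcripts, *Rictor* (9312 bases, r = 0.33), *Deptor* (8547 bases, 0.06) and *Atg2b* (0.33), so length alone did not order the members. These values are a description over libraries that share this slope. The slope overlapped between the conditions, with medians of -0.094 and -0.055 in controls and *ChAT-BKO* neurons at ZT8 and -0.085 and -0.068 at ZT20. With the slope as a covariate, the members called between times over both genotypes went from 2 to 8, while calls over all genes went from 585 to 1516.

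Other genes of the pathway, 106 in 9 lists, gave the context of the members. These lists too were chosen with earlier results of these data known. None was called between genotypes at ZT8, at ZT20 or over both times, or for the difference of the effects, by edgeR, with 4, 7, 6 and 4 of 106 at an unadjusted p under 0.05 (4.83%, 6.28%, 7.04% and 3.9% of all genes). The 14 lysosomal genes under TFEB control had a median log2 fold change of 0.00 at ZT8 and 0.02 at ZT20 between genotypes. Between times over both genotypes, 5 of the 106 were called (2.69% of all genes), and in *ChAT-BKO* neurons 1 was (0.285% of all genes). For these lists too, no share for genes of like level was computed.

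Beta subunits of AMP-activated protein kinase (AMPK), the energy sensor that activates ULK1 and restrains mTORC1, were 2 of the 5 genes called between times. They belong to a list of 13 AMPK, AKT and stress input genes, in which no other gene was called. Log2 fold changes in that list ran from -0.47 to 0.40. *Prkab1*, a regulatory beta subunit, was at 22.2 ± 2.76 CPM in controls and 21.5 ± 2.0 in *ChAT-BKO* neurons at ZT8, and at 16.3 ± 1.21 and 14.9 ± 2.74 at ZT20. Its log2 fold change between times was -0.47 (SE 0.07, interval -0.61 to -0.33, edgeR adjusted p = 0.000108), with all 12 libraries at ZT20 below the ZT8 median. It was also the 1 gene called within *ChAT-BKO* neurons (-0.51, edgeR adjusted p = 0.0491), a call that held in 2 of 12 runs with a library left out. *Prkab2*, the other beta subunit, fell as well, from 95.2 ± 7.59 to 82.6 ± 6.35 CPM (-0.20, SE 0.05, edgeR adjusted p = 0.0126).

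*Flcn*, which encodes folliculin, a regulator of the Rag GTPases that controls TFEB, was at 34.9 ± 4.12 CPM at ZT8 and 42.0 ± 4.52 at ZT20 (0.27, SE 0.06, edgeR adjusted p = 0.011), so it rose, as *Tfeb* did. *Tecpr1*, which encodes a protein of autophagosome fusion with lysosomes, fell by 0.14 on the log2 scale (SE 0.03, edgeR adjusted p = 0.0104). *Tti2*, a factor that helps assemble mTOR, gave -0.17 (SE 0.05, edgeR adjusted p = 0.0462), and this call held in 5 of 24 runs with a library left out. Among the 14 lysosomal TFEB targets, 0 were called between times by edgeR over both genotypes and 0 had an unadjusted p under 0.05, with a median of 0.02 and a range from -0.05 to 0.17.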

How the data were processed

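HA immunoprecipitates of 24 spinal cords and 1 pooled input were sequenced as stranded mRNA libraries. The authors aligned reads to mm10 with STAR 2.7.5 and deposited expected counts per gene from RSEM with Ensembl annotation. The strand setting is not given in the sources used here. Of the deposited values 6.11% were not whole, and all were rounded. Genes that reached 10 counts in the sum of the 24 IPs were tested with edgeR 4.0.16 (R 4.3.3) by TMM scaling and the quasi-likelihood test, with Benjamini-Hochberg adjustment over all 21738 genes and a threshold of 0.05. Comparisons at 1 time or in 1 genotype used their own 12 libraries, and the others used all 24. The scripts were tested on simulated data.

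Alternatives were DESeq2 1.42.0, limma 3.58.1, DESeq2 size factors, other filters, unrounded counts, all libraries in 1 fit, a replicate block, the length slope as a covariate, and each library left out. Lengths are of the longest principal transcript in GENCODE M21, found for 87.1% of genes. Same-numbered deviations correlated from -0.57 to 0.70, which does not settle whether replicate numbers pair the samples. The main fits used no pairing. Libraries are of separate mice, and all 60 replicate pairs differed beyond sampling noise. Total counts of 4035327 to 31685178 per library set the precision.

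The members and lists were chosen with earlier results of these data known. Every member is named with its level, and statistics are given for members called and for the 5 with the smallest p in each comparison. Of the other pathway genes, at most 4 called per list are named. The input entered no test.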

Additional observations from a re-analysis of the deposited data

Results flagged for a closer look

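In 8 of 172 groups of 6 libraries, 1 member in 1 condition had a library apart from the other 5 by Dixon's criterion, which chance gives in about 1 in 20 groups. High values were *Ulk2* in control ZT8 replicate 5 (22.3 CPM, others 19.5 to 20.3), *Atg2a* in control ZT20 replicate 1 (65.8, others 57.8 to 60.7), *Atg4b* in *ChAT-BKO* ZT20 replicate 3 (103.0, others 90.0 to 94.4) and *Tfe3* in *ChAT-BKO* ZT20 replicate 2 (56.4, others 44.9 to 49.2). Low values were *Atg13* in control ZT20 replicate 2 (108.0 CPM, others 116 to 120), *Uvrag* in the same library (33.4, others 40.0 to 44.0), *Atg14* in *ChAT-BKO* ZT8 replicate 3 (6.36, others 8.32 to 9.03) and *Atg10* in that library (9.41, others 11.0 to 11.9).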

How the results depend on the processing

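No genotype comparison called a member under any alternative run. With the length slope as a covariate, members called between times went from 0 to 2 in controls (*Atg2a* and *Mlst8*), from 0 to 1 in *ChAT-BKO* neurons (*Tfeb*), and from 2 to 8 over both genotypes, where *Gabarap*, *Tsc2*, *Pik3r4*, *Rptor*, *Atg2a* and *Mtor* were added. Calls over all genes rose from 25 to 339 in controls and from 62 to 498 in *ChAT-BKO* neurons. Over both genotypes they rose from 585 to 1516. The cause of these rises was not tested. The median IP to input ratio of 0.53 became 0.08 with library totals and 0.45 with DESeq2 size factors. With the replicate block, members called were 0 in each genotype comparison and 2 between times over both genotypes, and no member call changed.

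Values near 0 changed sign. The *Tfeb* genotype difference at ZT20 (-0.03) was 0.03 with the length slope and -0.10 to 0.02 with a library left out. The *Mlst8* interaction (0.00) was -0.00 with no filter, filterByExpr or the replicate block, and -0.04 to 0.04 with a library left out. The *Tfeb* interaction (0.07) ran from -0.00 to 0.13 with a library left out, the lowest without *ChAT-BKO* ZT20 replicate 5. Calls over all genes between times over both genotypes were 585, against 971 with DESeq2 and 1516 with the length slope. *Prkab1* in *ChAT-BKO* neurons and *Tti2* over both genotypes lost their calls in 10 of 12 and 19 of 24 runs with a library left out. Precision is limited most for *Atg4a*, the member with the lowest level.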
